A study of Sus scrofa with 23 samples.

Results

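IL10 and IL12B are a pair of cytokine genes that macrophages switch on after contact with bacterial products, and the values here describe both over every array of a series on pig bone marrow-derived macrophages exposed to LPS (lipopolysaccharide, a component of the bacterial cell wall). They were chosen by the gene annotation of the array's probe sets, which gave 1 probe set for IL10 and 1 for IL12B, 2 of 23999 probe sets measured and 2 of 6765 named genes. The macrophages came from bone marrow of 3 largeWhite x Landrace F1 pigs, grown with recombinant human CSF1, the growth factor that turns marrow cells into macrophages. Pig 2 is labelled female, the other 2 male. The arrays comprised 6 labelled 0 h (unstimulated), and 6 labelled 2 h, 6 labelled 7 h and 5 labelled 24 h after 100 ng/ml of LPS from Salmonella enterica serotype minnesota. First and duplicate cultures were made from every pig at every time, but the pig 3 duplicate at 24 h has no array.

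IL10 encodes interleukin-10, a secreted cytokine that signals through a receptor made of IL10RA and IL10RB to STAT3 and restrains the output of inflammatory cytokines by macrophages. IL12B encodes the larger subunit that interleukin-12 and interleukin-23 have in common. Interleukin-12 drives T cells and NK cells to make interferon gamma, and interleukin-10 is known to hold down IL12B in macrophages, so the order in which these genes respond to LPS is of interest. The time labels of these arrays did not pass a check, so the times below are those of the labels and no order of response in time is drawn from them.

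EIF1AY, a Y-linked gene for a translation initiation factor, had a log2 intensity of 3.60 to 4.08 on 8 arrays and of 8.16 to 9.45 on the other 15. It stood against the labelled sex on 8 of 23 arrays, of which 2 were labelled pig 1, 4 pig 2 and 2 pig 3. Over all probe sets but those of IL10 and IL12B, 11 pairs of arrays were each other's most similar array (Pearson r between 0.995 and 0.998 over probe sets). All 11 pairs shared the labelled pig and the EIF1AY level, 0 of 11 shared the labelled time, and all 11 were neighbours in the order of deposition. For 0 of 22 arrays was the labelled duplicate culture the most similar array, and labelled duplicates correlated at 0.975 to 0.990. No time and no animal was assigned to an array from that order or from the values. Array medians ran from 69.5 to 73.9 intensity units, and the number of arrays limits the precision.

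IL10 and IL12B were both among the genes that varied most over the 23 arrays. IL10 ran from a log2 intensity of 4.35 to 9.02 with a median of 6.41, a span of 4.67 log2 units or 25.5-fold. IL12B ran from 3.47 to 10.05 with a median of 6.03, a span of 6.58 log2 units or 95.9-fold. Of 6765 genes, 95 spanned more than IL10 and 20 more than IL12B, where the median gene spanned 0.96. The low end of IL12B lay in the range of the dimmest probe sets, since 25% of all values on the arrays lay below 4.47. The deposited table gives no detection calls, so whether IL12B was expressed at all on the dimmest arrays was not measured, and the fold is only that between intensities.

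As labelled, IL10 did not separate the times. At the labelled 0 h it had 5.12, 7.15 and 8.28 log2 units as lowest, median and highest of 6 arrays. At 2 h these were 5.07, 7.16 and 8.30 (6 arrays), and at 7 h 4.77, 6.61 and 9.02 (6 arrays). At 24 h the 5 arrays labelled pig 1 first, pig 1 duplicate, pig 2 first, pig 2 duplicate and pig 3 first culture had 4.35, 8.95, 6.31, 6.10 and 7.19. The 4 labelled times overlapped over nearly their whole ranges, with low and high arrays at each. Of the variance of IL10 over the arrays, 0.985% lay between labelled times and 30.5% between labelled pigs. Each labelled pig held arrays of both EIF1AY levels, so the share between labelled pigs is not that between animals. The share between labelled times may not be that between times.

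IL12B also overlapped between the labelled times, and its highest arrays carried the labels 0 h and 2 h. At the labelled 0 h it had 3.47, 6.71 and 10.05 log2 units as lowest, median and highest of 6 arrays. At 2 h these were 4.04, 6.47 and 9.95 (6 arrays), and at 7 h 4.13, 5.77 and 7.74 (6 arrays). At 24 h the same 5 labelled cultures as above had 4.07, 4.30, 6.27, 7.70 and 4.87. Low arrays occurred at every labelled time. The share of its variance that lay between labelled times was 4.99%, and that between labelled pigs 63.1%. As for IL10, the share between labelled pigs is not that between animals, and the share between labelled times may not be that between times.

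**Figure D1:**
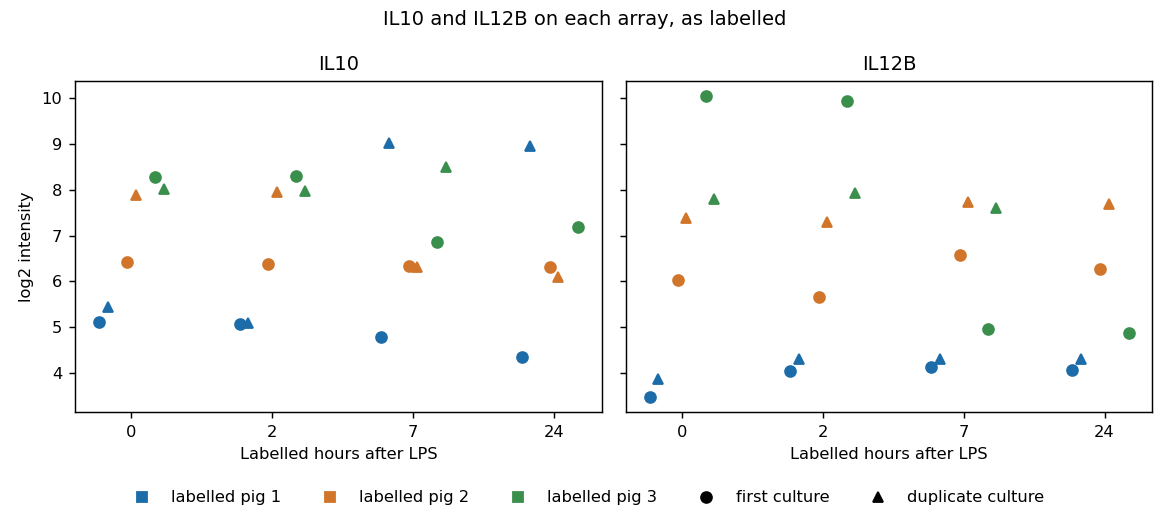
Log2 intensity of IL10 (left) and IL12B (right) on each of the 23 arrays against the labelled hours after LPS, with colour for the labelled pig and marker shape for the first or duplicate culture. The labelled times overlap for both genes, and the 8 arrays labelled pig 1 are the lowest for IL12B, at 3.47 to 4.31.

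Neither gene passed the test of any labelled later time against 0 h. The test was limma's, on log2 values with duplicate cultures averaged to 12 pig-by-time means, labelled pig as a block and Benjamini-Hochberg adjustment across the 23999 probe sets. At that threshold (0.05), 3 probe sets were called at 2 h, 0 at 7 h and 1 at 24 h, which is 0.0125%, 0% and 0.00417% of those tested, and 521, 754 and 986 had an unadjusted p under 0.05. Labelled duplicates differed in EIF1AY in each labelled pig, as at pig 1 7 h (3.63 and 9.12), pig 2 0 h (4.08 and 8.82) and pig 3 0 h (8.47 and 3.84). Averaging such duplicates mixed arrays that EIF1AY marks as male and as female. The SD, SE and p-values below therefore do not measure a spread between animals. In every labelled culture the 0 h and 2 h arrays were each other's most similar array. Small differences at 2 h were therefore set before the test. These results do not tell whether either gene responded to LPS.

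IL10 averaged 6.79 ± 1.56 log2 units at the labelled 2 h and 6.86 ± 1.46 at 0 h (SD, n = 3 labelled pigs), a difference of -0.07 ± 0.55 (SE, limma adjusted p = 1). At 7 h it averaged 6.97 ± 0.68, 0.11 ± 0.55 above the 0 h mean (SE, limma adjusted p = 0.994). At 24 h it averaged 6.68 ± 0.49, which differed from 0 h by -0.18 ± 0.55 (SE, limma adjusted p = 0.958). All 3 differences were smaller than their SE. Leaving out labelled pig 1 gave -0.65 at 7 h and -0.96 at 24 h, and leaving out labelled pig 2 or 3 gave 0.20 and 0.21 at 24 h, none of which was called.

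IL12B averaged 6.53 ± 2.38 log2 units at the labelled 2 h and 6.43 ± 2.64 at 0 h (SD, n = 3 labelled pigs), a difference of 0.10 ± 0.89 (SE, limma adjusted p = 1). At 7 h it averaged 5.89 ± 1.51, a difference of -0.54 ± 0.89 (SE, limma adjusted p = 0.993). At 24 h it averaged 5.35 ± 1.46, a difference of -1.09 ± 0.89 (SE, limma adjusted p = 0.914). The differences at 2 h and 7 h were smaller than their SE. That at 24 h was larger than its SE but was not called. Without labelled pig 3 the differences were 0.50 at 7 h and 0.40 at 24 h, the opposite direction. The most similar arrays carry the labels 0 h with 2 h or 7 h with 24 h of a pig, so the SE of the 2 h comparison does not measure the spread within those pairs. Without the 8 arrays against their labelled sex, the difference for IL10 was 1.02 at 7 h and 0.75 at 24 h, and that for IL12B -0.47 at 7 h and -0.96 at 24 h, none of them called. The arrays left kept their labelled times, so leaving the others out cannot correct the time labels.

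The differences from 0 h within single labelled cultures went in both directions. EIF1AY also differed within some of these labelled cultures, where they cannot be read as changes within an animal. In the first culture of labelled pig 1 EIF1AY had 9.10 at 0 h, 3.63 at 7 h and 3.60 at 24 h. In the duplicate culture of labelled pig 2 it had 8.82, 3.75 and 3.89. IL10 in the duplicate culture of labelled pig 1 had 9.02 at 7 h and 8.95 at 24 h, against 5.43 at 0 h. In the first culture of the same labelled pig it had 4.77 at 7 h and 4.35 at 24 h, against 5.12 at 0 h. Cultures that the labels call duplicates thus stood 4.24 log2 units apart at 7 h and 4.60 at 24 h. In the duplicate culture of labelled pig 2 it had 6.32 at 7 h and 6.10 at 24 h, against 7.89 at 0 h.

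For IL12B the widest difference from 0 h within a labelled culture was downward. In the first culture of labelled pig 3 it had 4.97 at 7 h and 4.87 at 24 h, against 10.05 at 0 h. In the duplicate culture of that pig it had 7.61 at 7 h, against 7.81 at 0 h. The 2 labelled duplicates of pig 3 at 7 h therefore differed by 2.64 log2 units, and those at 0 h by 2.24. EIF1AY in that duplicate culture had 3.84 at 0 h and 8.56 at 7 h, so its difference cannot be read as a change within an animal. In labelled pig 1 the gene stayed between 3.47 and 4.31 on all 8 arrays, below each of the 8 arrays labelled pig 2 (5.65 to 7.74) and the 7 labelled pig 3 (4.87 to 10.05).

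The levels of both genes agreed closely within the most similar pairs, which were found without these probe sets. IL10 differed by a median of 0.33 log2 units between labelled duplicates (0.01 to 4.60, 11 pairs), and by a median of 0.06 within the most similar pairs (0.01 to 0.43, 11 pairs). IL12B differed by a median of 1.36 between labelled duplicates (0.18 to 2.64) and by a median of 0.10 within the most similar pairs (0.01 to 0.57). The most similar pairs were picked for their likeness over all other probe sets, and the arrays of each carry different labelled times. Their differences are therefore not a measure of the error between replicate arrays. No test was made between the pairings, which consist of the same arrays.

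**Figure D2:**
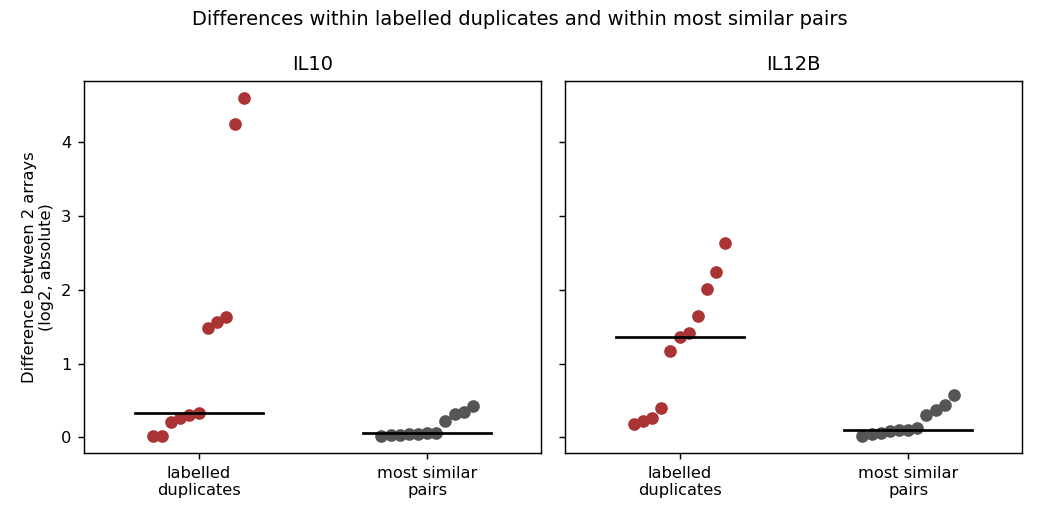
Absolute log2 difference between the 2 arrays of a pair for IL10 (left) and IL12B (right), with 11 labelled duplicate pairs in red and 11 most similar pairs in grey, and a line at each median. The labelled duplicates reach 4.60 for IL10 and 2.64 for IL12B, whereas the most similar pairs stay at or below 0.43 and 0.57.

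IL10 and IL12B did not vary together on every array. IL10 was highest on the 2 arrays labelled pig 1, duplicate culture, 7 h and 24 h (9.02 and 8.95), where IL12B had 4.31 and 4.30. On the other 6 arrays labelled pig 1, IL12B was similarly low at 3.47 to 4.31 but IL10 had only 4.35 to 5.43. These arrays thus shared a dim IL12B signal and differed in IL10. TNF, an early inflammatory cytokine of macrophages, had 12.48 and 12.51 on that pair and 5.42 to 6.10 on those 6 arrays.

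IL12B was highest on the 2 arrays labelled pig 3, first culture, 0 h and 2 h (10.05 and 9.95), where IL10 had 8.28 and 8.30. Both genes were high there, and TNF had 11.30 and 11.22. On the arrays of the same labelled culture at 7 h and 24 h, IL12B had 4.97 and 4.87, IL10 6.87 and 7.19, and TNF 6.20 and 6.33. IL10 was thus in the middle of its range on arrays where IL12B and TNF were near the low end of theirs.

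Neither IL10 nor IL12B had its lowest or highest level on the arrays labelled pig 2, whereas TNF had its highest there, 12.56. In the first culture IL10 stayed between 6.31 and 6.41 over the 4 labelled times, with IL12B between 5.65 and 6.57 and TNF between 12.35 and 12.56. In the duplicate culture at the labelled 7 h and 24 h, IL12B had 7.74 and 7.70 with IL10 at 6.32 and 6.10. At the labelled 0 h and 2 h of that culture IL12B was close to those values, at 7.39 and 7.30, while IL10 was higher, at 7.89 and 7.94. The 2 arrays labelled pig 3, duplicate culture, 0 h and 2 h were near these last, with 7.81 and 7.94 for IL12B and 8.03 and 7.97 for IL10. The duplicate culture of pig 3 at the labelled 7 h, which belonged to no pair, had the highest IL10 outside labelled pig 1, 8.50, with IL12B at 7.61 and TNF at 7.84.

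Over the 23 arrays the levels of IL10 and IL12B had a Pearson r of 0.552 and a Spearman rho of 0.558. With 1 mean for each most similar pair (12 values) r was 0.571. These are descriptions with no p, because the arrays share pigs and come in near-identical pairs. Without the 2 arrays farthest from the IL10 median, which are the pair labelled pig 1, duplicate culture, 7 h and 24 h, r was 0.825 over 21 arrays. Without any other single pair it lay between 0.471 and 0.613. Within labelled pigs r was 0.468 in pig 1 (8 arrays), 0.306 in pig 2 (8 arrays) and 0.860 in pig 3 (7 arrays), with Spearman rho of 0.286, -0.238 and 0.536.

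**Figure D3:**
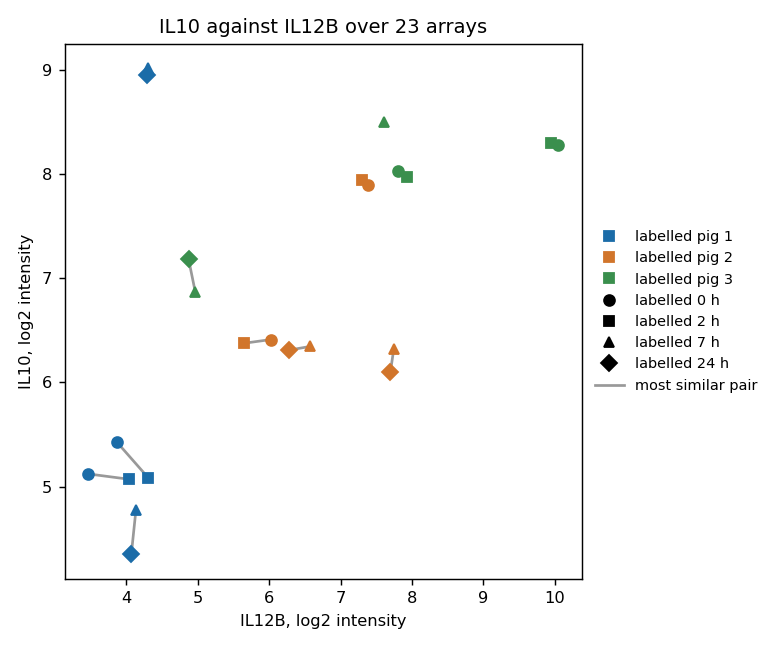
IL10 against IL12B, both as log2 intensity, on 23 arrays, with colour for the labelled pig, marker shape for the labelled time and grey lines joining the 11 most similar pairs. The pair at IL10 9.02 and 8.95 with IL12B 4.31 and 4.30 stands apart at the top left, and the pair at IL12B 10.05 and 9.95 stands at the right.

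The genes most like each cytokine were taken from 3212 genes that spanned at least 1 log2 unit, by Pearson r over the same 23 arrays. The likeness was closer for IL12B, whose 10 nearest genes had r of 0.945 to 0.960, than for IL10, whose 10 nearest had 0.786 to 0.829. These values are descriptions of arrays that share pigs and come in pairs.

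Nearest to IL12B was TRAFD1, an interferon-inducible regulator of innate signalling (r = 0.960), which ran from 8.28 to 10.51 log2 units. ADIPOR2, a receptor for adiponectin, followed with 0.959, and METTL1, a tRNA methyltransferase, with 0.959. CCRL2, an atypical receptor for the chemoattractant chemerin, had 0.953 and ran from 8.38 to 12.80. The others were FAM46A, TOR3A, VCPIP1 (a deubiquitinase), LOC641352, DAXX (a nuclear histone chaperone) and LCP2 (a signalling adaptor of blood cells). The r of these 10 with IL10 was 0.408 to 0.603. The most opposed to IL12B were GTF2I, a general transcription factor (r = -0.968, from 7.10 to 10.15), COLGALT1, a collagen-modifying enzyme (-0.962), TRAM2 (-0.958), MYADM (-0.958) and HK1, a hexokinase (-0.956).

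Nearest to IL10 was CCNG2, an atypical cyclin (r = 0.829), which ran from 8.07 to 11.51 log2 units. IER2, an immediate-early gene, had 0.821, and PPIF, the mitochondrial cyclophilin, 0.812. The r with IL12B was 0.294 for IER2 and 0.578 for PPIF. TIAM2 (0.807), NFKBIB, an inhibitor of NF-kappaB (0.805), and FZD4, a Wnt receptor (0.800), came next. CEBPB, a transcription factor known to act on IL10 and IL12B, had 0.799 and ran from 11.33 to 13.40. GGTA1P (0.795), the chemokine CCL5 (0.793) and the costimulatory molecule CD86 (0.786) completed the 10. The most opposed were MOSPD1 (-0.809), AK5 (-0.808), IFT22 (-0.771), PPP4R1L (-0.757) and FASTKD3 (-0.757). NFKBIB was about as close to IL12B (0.834) as to IL10. TNF had 0.595 with IL10 and 0.550 with IL12B, and IL1B, another early inflammatory cytokine, 0.773 and 0.622.

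**Figure D4:**
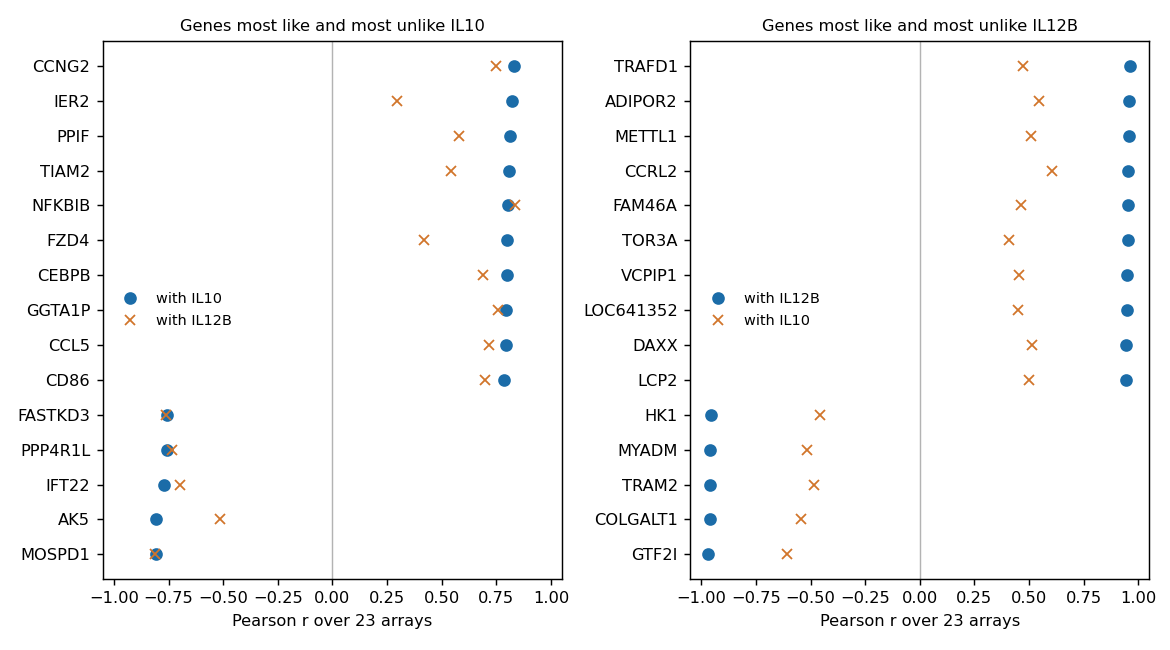
Pearson r over 23 arrays for the 10 most alike and 5 most opposed genes of IL10 (left) and IL12B (right), with blue circles for the r with the gene in the panel title and orange crosses for the r with the other cytokine. The 10 genes nearest to IL12B lie at 0.945 to 0.960 with IL12B but at 0.408 to 0.603 with IL10.

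Of 18 genes, those of the interleukin-12 family, its receptors and signalling with interferon gamma, its receptor, IL15 and IL18, 10 were named on the array. Over all probe sets limma called 0.0125%, 0% and 0.00417% at the labelled 2, 7 and 24 h. It called 0 of the 10 in either direction at any labelled time, which at such shares does not set them apart. Their median span was 2.02 log2 units, against 0.96 over all genes, and their median r was 0.722 with IL12B and 0.504 with IL10, against -0.09 with each over all genes. IL12A, the partner subunit of interleukin-12, was much narrower than IL12B, from 4.34 to 6.29 with a median of 5.10. IL15, a cytokine that sustains NK cells, spanned the most, from 5.45 to 10.94. STAT4, which carries the interleukin-12 signal inside T and NK cells, ran from 4.76 to 8.35, the kinase JAK2 from 7.75 to 10.62 and the cytokine IL18 from 8.94 to 11.29. JAK2 had r of 0.859 with IL12B and 0.522 with IL10. IFNG, the main product of interleukin-12 action, stayed at 3.36 to 4.10 on all 23 arrays.

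Of 18 genes of the interleukin-10 receptor and its signalling, 12 were named on the array. Over all probe sets limma called 0.0125%, 0% and 0.00417% at the labelled 2, 7 and 24 h. It called 0 of the 12 in either direction at any labelled time, which at such shares does not set them apart. Their median span was 1.93 log2 units and their median r was 0.452 with IL10 and 0.551 with IL12B. IL10RB, the shared chain of the receptor, ran from 9.19 to 11.41 (r = 0.765 with IL10). STAT3, the factor activated by the receptor, ran from 9.57 to 11.17 and was closer to IL12B (0.913) than to IL10 (0.569). SOCS1, an inhibitor of cytokine signalling, ran from 4.07 to 9.72, DUSP1, a phosphatase that shuts off MAP kinases, from 8.65 to 12.35, and NFIL3, a transcription factor, from 8.60 to 11.78. SOCS3, a feedback inhibitor that STAT3 switches on, ran from 4.79 to 6.43 (r = 0.352 with IL10). CD163, a scavenger receptor that interleukin-10 is known to raise, ran from 7.85 to 11.36, with r of 0.107 with IL10 and -0.524 with IL12B.

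Of 27 regulators known to act on IL10 or IL12B, 14 were named on the array. Over all probe sets limma called 0.0125%, 0% and 0.00417% at the labelled 2, 7 and 24 h. It called 0 of the 14 in either direction at any labelled time, which at such shares does not set them apart. Their median span was 1.44 log2 units and their median r was 0.373 with IL10 and 0.405 with IL12B. IRF1, a transcription factor of the interferon response, spanned the most, from 8.24 to 13.35, with r of 0.645 with IL10 and 0.554 with IL12B. IRF8, which acts on IL12B in macrophages, ran from 8.48 to 12.44 (r = 0.446 with IL12B). FOS, an immediate-early factor, ran from 6.99 to 11.44, with 0.017 for IL10 and -0.500 for IL12B. BHLHE40, a repressor of IL10 known from the mouse, ran from 6.97 to 9.04 and had a positive r with IL10 of 0.736.

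The labelled cell type was checked on the macrophage markers that had a named probe set, 6 of 10. CD14, the LPS co-receptor, ran from 7.13 to 11.00, CD163 from 7.85 to 11.36 and AIF1 from 12.62 to 13.36. ITGAM, an integrin of myeloid cells, was dim at 4.39 to 5.03, and the scavenger receptor MARCO had 5.58 to 6.15, where the median of all values on the arrays was 6.16. TYROBP, a signalling adaptor of myeloid cells, had 12.61 to 13.14, and CSF1R, CD68, LYZ and MSR1 had no named probe set. Summed intensities of the macrophage markers spanned 13.89 to 14.31 on the log2 scale. That sum rests mostly on the bright AIF1 and TYROBP, so it shows little of the spans of CD14 and CD163. Of T and NK cell markers, 5 of 8 were named, with sums of 7.37 to 10.60. CD3D, CD3E and CD3G, which define T cells, stayed at or below 6.31, 4.99 and 4.79, while CD2 ran from 5.18 to 10.45 and had r of 0.849 with IL12B. Of dendritic cell markers 2 of 6 were named, and CCR7 ran from 5.98 to 7.92 with r of 0.811 with IL12B. Granulocyte markers (3 of 6) had sums of 10.04 to 13.83, B cell markers (2 of 5) 7.26 to 9.27 and stromal markers (4 of 5) 8.16 to 10.33. The r of single markers with IL12B went in both directions, from -0.87 for TYROBP to 0.849 for CD2. Its median was 0.18 for macrophage, 0.43 for T and NK and 0.62 for dendritic markers. For granulocyte, B cell and stromal markers the median was 0.26, 0.07 and -0.07. The part of these cell types in the levels of IL10 and IL12B was not tested. In a whole culture fewer cells of a type and less RNA per cell cannot be told apart.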

How the data were processed

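Per the submitters' processing notes the authors used affy and RMA (versions not given in the sources used here), and the deposited table holds intensity on a linear, not a log, scale. Here log2 was taken with no further normalization, and 124 array controls were dropped from 24123 probe sets. The platform annotation named 1 gene for 10069 probe sets, and the probe set with the highest mean stood for a gene. Symbols were looked up by gene ID in RefSeq's table for Sscrofa11.1, which changed 0 of them. Samples were grouped by their labels. Columns were not regrouped by their order or values, although array similarity and EIF1AY went against the labels. Limma (version 3.58.1, R 4.3.3) was fitted to 12 means of labelled pig and time, with pig as a block, because the labels say that the same 3 pigs supplied every time. The fit was tested on simulated data with the same spread for every probe set, no differences between pigs and correct labels. That test does not cover the spreads or the labels of these arrays. The members, gene lists and tests were chosen with earlier results of these data known. Named genes were the 10 most alike and 5 most opposed for each cytokine (span of at least 1 log2 unit), up to 4 list members of widest span, and others of the lists chosen for their role after their values were seen. No sequence is printed.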

Additional observations from a re-analysis of the deposited data

Results flagged for a closer look

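At each later labelled time, some pairs of labelled pigs went in opposite directions for IL12B in all their cultures, and none of these differences between pigs was tested. At the labelled 2 h against 0 h the mean change was 0.51 log2 units in pig 1 and -0.23 in pig 2 (2 cultures each), 0.74 apart. At 7 h it was 0.56 in pig 1 and 0.45 in pig 2, and -2.64 in pig 3 (2 cultures each), so that pigs 1 and 2 stood 3.20 and 3.10 above pig 3. The mean of pig 3 rested on its first culture, which changed by -5.08, against -0.20 in the duplicate culture. At 24 h it was 0.52 in pig 1 and 0.28 in pig 2, and -5.18 in the 1 culture of pig 3, which is 5.70 and 5.46 apart. The labels of these arrays failed the check described above, so the differences may not be between animals or times.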

How the results depend on the processing

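Neither IL10 nor IL12B was called at any labelled time under any alternative run, but their directions were not stable. Leaving out 1 labelled pig gave IL10 differences from 0 h of -0.11 to -0.0071 at 2 h, -0.65 to 0.57 at 7 h and -0.96 to 0.21 at 24 h, and IL12B differences of -0.11 to 0.26, -1.09 to 0.50 and -1.89 to 0.40, with 0 probe sets called in each of these fits. First cultures only gave -0.61 for IL10 at 7 h. Duplicate cultures only gave 0.20 for IL12B at 7 h, and 0.81 for IL10 and 0.30 for IL12B at 24 h. Both gave 0 probe sets called at 2 h and 24 h, as did quantile normalization. Without the 8 arrays against their labelled sex, IL10 was 1.02 at 7 h and 0.75 at 24 h, and 0, 1 and 3 probe sets were called at 2, 7 and 24 h. With no replicate block (labelled pig) 2 probe sets were called at 24 h, and the SE of IL12B was 1.52. The cause of these shifts was not tested. The r between IL10 and IL12B was 0.561 after quantile normalization. Each gene had 1 probe set, so no other could be tried. The labels that failed the check limit every comparison between times, and the missing detection calls limit the low values of IL12B.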
